A study of Mus musculus with 19 samples.

Results

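Levels of 43 axon guidance ligands and receptors were compared between control and *Ino80* mutant cortex of E13.5 mouse embryos. The genes were taken by name from a list of the Slit/Robo, netrin, semaphorin/plexin and ephrin families, out of 51912 genes in the count tables. The list held 3 Slit ligands and 3 Robo receptors, *Ntn1* with 4 *Unc5* receptors, 8 semaphorins with 2 neuropilins and 8 plexins, and 6 ephrins with 8 Eph receptors. All 43 passed the filter on low counts in each comparison.

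The study sequenced ribosome-depleted RNA of cerebral cortex, 1 library per embryo, by Click-seq, in which each cDNA molecule carries a molecular identifier. The 7 control embryos (ctrl) are labelled only as controls, so which alleles they carried is not given in the sources used here. The 5 cKO-E embryos carried *Emx1*-Cre with 2 floxed *Ino80* alleles, and the 7 dKO-E embryos carried floxed *Trp53* alleles in addition. All 19 embryos were E13.5 and of mixed C57BL/6 and 129 background. *Ino80* encodes the motor of a nucleosome remodelling complex, and *Trp53* encodes p53, which responds to DNA damage. *Emx1*-Cre acts in cortical progenitors and their descendants, so interneurons, microglia, vessels and blood in the same tissue kept their floxed alleles intact.

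Axon guidance molecules steer growing axons and migrating neurons. Slits repel through Robo receptors, netrin-1 attracts through DCC and repels through UNC5 receptors, secreted class 3 semaphorins act on neuropilin and plexin complexes, and ephrins signal with Eph receptors in both directions between touching cells. In the embryonic cortex these families take part in the routing of the corpus callosum and of corticofugal and thalamocortical axons, and in the migration of neurons.

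Libraries held between 820915 and 8095810 deduplicated counts on genes. Reads assigned to no gene made up 23.3% to 31.8% of the counted total. The 7 dKO-E embryos belonged to 2 litters, 1 of them shared with 2 ctrl embryos, and the 5 cKO-E embryos to 5 litters, none shared with dKO-E. Genotype and litter therefore cannot be told apart where the mutants are compared. Embryos dKO-E D, E, F and G came from a litter without ctrl embryos, so genotype and litter are also partly confounded in dKO-E against ctrl. With litter as a term, that comparison rests on dKO-E A, B and C against ctrl A and B. For cKO-E against ctrl, such a fit rests on cKO-E B, C and E against ctrl C, D, F, H and I. Embryos were of both sexes in every group, with 4 females of 5 in cKO-E and 2 of 7 in dKO-E. Levels are given as CPM, the counts of a gene scaled to a common library size with TMM factors. Fold changes and adjusted p-values come from edgeR's quasi-likelihood test with Benjamini-Hochberg adjustment over all genes tested in that comparison, and a gene was called at a false discovery rate (FDR) of 0.05. These p-values measure the spread between embryos. In whole tissue, fewer cells of a type and less RNA per cell cannot be told apart.

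Counts summed over all exons of *Ino80* were higher in both mutants. They were 122 ± 8.73 CPM in ctrl (SD, n = 7), 167 ± 14.8 in cKO-E (n = 5) and 187 ± 13.8 in dKO-E (n = 7), with adjusted p = 7.92e-05 and 8.84e-07 against ctrl. These sums include exons outside the floxed ones and so do not check the deletion. *Trp53* was 43.9 ± 5.21 CPM in ctrl, 39.5 ± 4.68 in cKO-E and 34.8 ± 4.96 in dKO-E, and passed the test in dKO-E against ctrl (log2 fold change -0.36, SE 0.10, adjusted p = 0.0196).

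In ctrl cortex, levels per kilobase of exon ranged from 0.543 to 154 CPM across the families. The Eph receptors *Epha3* (154 ± 32.5 CPM per kb, SD, n = 7), *Epha5* (141 ± 18.2) and *Epha4* (110 ± 7.88), the plexin *Plxna4* (143 ± 35.6), the receptor *Unc5d* (105 ± 23.5) and *Robo2* (100 ± 17.1) were at the top, and neighbours in this order differed by less than their SD except for *Epha5* and *Epha4*. Among ligands, the membrane-bound ephrin *Efnb2* was highest (81.4 ± 6.77 CPM per kb), followed by *Sema5a* (65.4 ± 5.08). At the other end were *Sema3d* (0.543 ± 0.186), *Ephb3* (0.76 ± 0.276), *Unc5c* (0.912 ± 0.349) and *Ntn1* (1.14 ± 0.369). *Sema3d* had as few as 8 counts in a ctrl library and 1 in a dKO-E library, so small differences in it were not detectable at this depth.

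**Figure D1:**
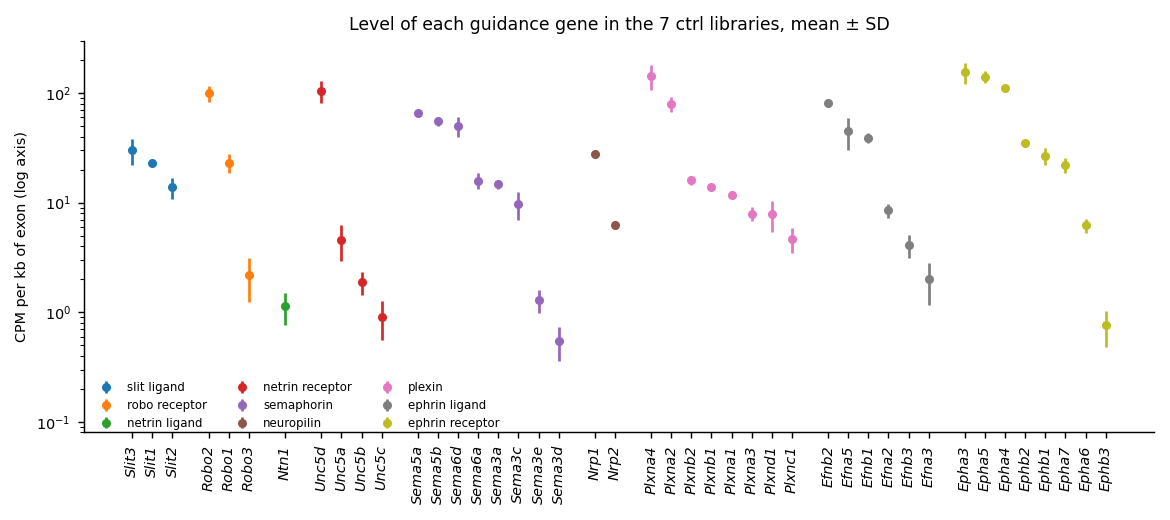
Level of each guidance gene in ctrl cortex, in CPM per kb of exon on a log axis. Points are means over the 7 ctrl libraries, bars are SD and colours mark the family from *Epha3* at 154 to *Sema3d* at 0.543 CPM per kb.

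The promoters of *Nrp1*, *Nrp2*, *Slit3* and *Epha4*, 4 of the 12 genes described by library, are shown as examples of genes that fell in both mutants, moved in opposite directions, or rose or fell in cKO-E, so that their base composition can be seen beside the values given later. Each runs from 250 bases before to 50 bases after the RefSeq start on GRCm38.p6, 5′ to 3′ along the gene, with CG pairs in capitals.
Nrp1, chr8:128358823-128359122, plus strand: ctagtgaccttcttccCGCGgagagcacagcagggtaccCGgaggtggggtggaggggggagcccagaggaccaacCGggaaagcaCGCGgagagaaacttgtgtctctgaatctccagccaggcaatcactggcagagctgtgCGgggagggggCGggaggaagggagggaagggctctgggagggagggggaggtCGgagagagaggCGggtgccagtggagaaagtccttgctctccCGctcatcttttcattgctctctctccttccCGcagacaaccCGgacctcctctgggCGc
Nrp2, chr1:62703067-62703366, plus strand: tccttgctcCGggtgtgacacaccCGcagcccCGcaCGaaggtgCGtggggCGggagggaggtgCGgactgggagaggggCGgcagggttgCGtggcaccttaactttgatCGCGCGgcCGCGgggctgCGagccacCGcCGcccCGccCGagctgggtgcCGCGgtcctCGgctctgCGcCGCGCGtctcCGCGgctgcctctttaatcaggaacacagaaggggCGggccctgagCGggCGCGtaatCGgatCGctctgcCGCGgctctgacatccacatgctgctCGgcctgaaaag
Slit3, chr11:35121206-35121505, plus strand: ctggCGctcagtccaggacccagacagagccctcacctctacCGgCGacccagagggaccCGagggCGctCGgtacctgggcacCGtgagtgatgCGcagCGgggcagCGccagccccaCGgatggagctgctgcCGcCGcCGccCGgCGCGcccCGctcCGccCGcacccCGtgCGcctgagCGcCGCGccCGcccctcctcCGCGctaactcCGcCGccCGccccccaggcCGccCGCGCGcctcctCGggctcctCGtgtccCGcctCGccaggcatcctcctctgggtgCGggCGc
Epha4, chr1:77515039-77515338, minus strand: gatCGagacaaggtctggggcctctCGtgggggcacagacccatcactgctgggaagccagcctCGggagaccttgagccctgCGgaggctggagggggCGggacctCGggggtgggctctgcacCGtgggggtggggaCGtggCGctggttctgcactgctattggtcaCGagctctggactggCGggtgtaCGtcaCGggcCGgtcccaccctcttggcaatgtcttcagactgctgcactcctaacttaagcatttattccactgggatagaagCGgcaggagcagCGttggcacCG
The table of RefSeq promoters held 36 of the 43 genes, with 42 promoters, and not *Sema6a*, *Slit1*, *Ntn1*, *Unc5d*, *Plxna1*, *Plxna4* and *Efnb3*. These had a median of 23 CG pairs, from 2 (*Sema3a*) to 42, against a median of 7 in all 32851 promoters of the same length, and a median GC content of 66.5% against 52.7%. Of the 4 shown, *Slit3* held 41 CG pairs and *Nrp2* held 37, while *Epha4* held 17 and *Nrp1* held 14. Over the promoters of all genes that rose in cKO-E, the number ran from 6 (*Sema6d*) to 42 (*Sema3c*), with 14 in *Ephb1* and 15 in *Epha6*. Over those that fell it ran from 2 (*Sema3a*) to 24 (*Ephb2*). Whether CG pairs relate to direction was not tested. The letters AANATGG on either strand, the core bound by YY1, a partner of the INO80 complex, stood in promoters of 1 of the 36 genes (*Sema3e*) and of 18.2% of all genes in that table. The p53 half-site stood in promoters of 2 of the 36 (*Robo1* and *Plxna3*) and of 9.55% of all genes. No promoter of the 36 genes held both. The shares over all genes were not matched for GC content, which was lower there than in the promoters of the guidance genes.

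Deletion of *Ino80* alone moved guidance genes in both directions. In cKO-E, 11 of 43 rose against ctrl, led by the ligand *Slit3* (2.27-fold) and the receptor *Unc5c* (2.31-fold), and 7 fell, led by the semaphorin coreceptor *Nrp1* (0.614-fold). At an FDR of 0.05, 7.31% of all 11660 genes tested rose and 9.88% fell. At a stricter FDR of 0.001, 5 of 43 rose (*Slit3*, *Unc5c*, *Sema6a*, *Nrp2*, *Epha6*) and 3 fell (*Nrp1*, *Epha4*, *Ephb2*), against 1.06% and 2.32% of all genes. Every cKO-E library lay above every ctrl library for 7 genes (3.21% of all genes) and below for 3 (5.56% of all genes). The median log2 fold change was 0.16 over the 43 genes and 0.02 over all genes tested.

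With *Trp53* deleted as well, the upward changes were absent from the calls. In dKO-E against ctrl, none of the 43 rose (5.45% of all 11381 genes tested did), 1 was higher at an unadjusted p under 0.05 (*Robo3*), and DESeq2 also called 0. In the other direction 14 fell, led by *Nrp1* (0.654-fold), *Plxnc1* (0.681-fold) and *Nrp2* (0.685-fold), beside 10% of all genes. At an FDR of 0.001 only *Nrp1* fell (2.34% of all genes fell and 0.246% rose). Every dKO-E library lay below every ctrl library for *Nrp1* and *Nrp2* (3.22% of all genes), and above for none of the 43 (1.21% of all genes). The median log2 fold change was -0.19 over the 43 genes and 0.01 over all genes tested.

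The direct comparison of the mutants gave the most calls. In dKO-E against cKO-E, 18 of 43 fell (9.42% of all 11746 genes tested did), led by *Slit3* (0.377-fold), *Nrp2* (0.470-fold) and *Sema6a* (0.482-fold). Only *Robo3*, *Ephb2* and *Epha4* rose, 3 of 43, beside 5.59% of all genes. At an FDR of 0.001, 8 fell and 0 rose, against 2.75% and 0.383% of all genes. The libraries did not overlap for 9 genes lower in dKO-E (4.66% of all genes) and 2 higher (2.43% of all genes). The median log2 fold change was -0.23 over the 43 genes and 0.02 over all.

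Set side by side, 4 genes rose in cKO-E and fell in dKO-E against ctrl (*Slit1*, *Sema6a*, *Nrp2*, *Ephb1*), a pattern of 0.584% of the 11306 genes tested in all 3 comparisons. In both mutants 4 fell (*Nrp1*, *Epha4*, *Sema3a*, *Sema5a*), beside 4.79% of those genes. With litter as a term, the dKO-E falls of *Slit1*, *Sema6a*, *Nrp2* and *Ephb1* were not called (adjusted p = 0.0605, 0.299, 0.150 and 0.0935). Within batch 2 these falls were not called either. Of the genes that fell in both mutants, only *Nrp1* kept its dKO-E call with litter as a term. Another 7 rose in cKO-E, were not called in dKO-E against ctrl, and were lower in dKO-E than cKO-E (*Slit3*, *Ntn1*, *Unc5c*, *Sema3c*, *Sema6d*, *Efna5*, *Epha6*), beside 3.35%. These shares describe the background and were not tested. The comparisons of both mutants with ctrl share the 7 ctrl libraries. In none of the 3 comparisons were 13 of the 43 genes called, beside 68.9% of all genes.

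**Figure D2:**
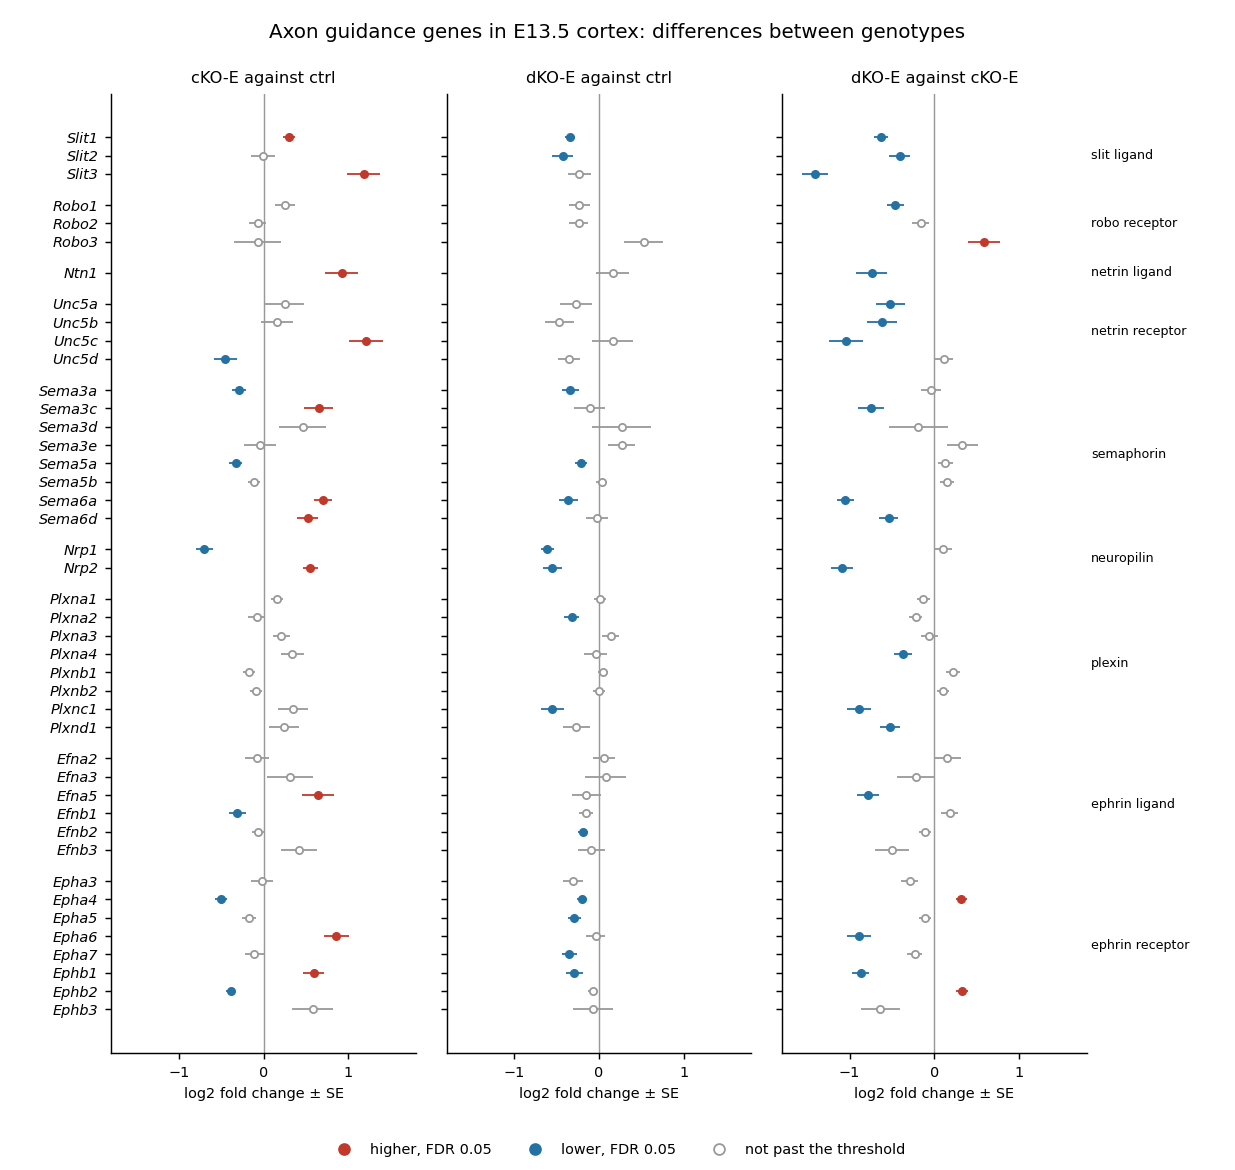
Log2 fold change of the 43 guidance genes, 1 row per gene grouped by family, in the 3 comparisons. Points are estimates from edgeR's quasi-likelihood fit, bars are SE, and filled points passed an FDR of 0.05: 11 red and 7 blue in the left panel, 0 and 14 in the middle, 3 and 18 on the right.

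Among Slit ligands, secreted repellents that bind Robo receptors, *Slit3* differed most. In ctrl its level was between 117 and 257 CPM (median 184, n = 7). The 5 cKO-E libraries had 352, 303, 632, 457 and 321 CPM, all above ctrl, and dKO-E lay between 136 and 203 (median 151, n = 7), inside the ctrl range. *Slit3* rose in cKO-E (log2 fold change 1.18, SE 0.19, adjusted p = 0.000356) and was lower in dKO-E than cKO-E (-1.41, SE 0.15, adjusted p = 2.55e-06). Against ctrl, dKO-E did not pass the test (-0.23, SE 0.13, adjusted p = 0.262).

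*Slit1*, which is expressed mostly in the nervous system, changed less in size and lay on both sides of ctrl. It was at 121 to 147 CPM in ctrl (median 134), at 155, 165, 170, 209 and 150 in cKO-E, and at 100 to 122 in dKO-E (median 103). All cKO-E libraries were above all ctrl libraries, and dKO-E overlapped ctrl only at its upper end. The rise in cKO-E was 0.30 on the log2 scale (SE 0.07, adjusted p = 0.00762). In dKO-E it was lower than in ctrl (-0.34, SE 0.06, adjusted p = 0.00138) and than in cKO-E (-0.63, SE 0.08, adjusted p = 3.82e-05). The fall against ctrl was not called with litter as a term (-0.32, adjusted p = 0.0605) or within batch 2 (-0.37, adjusted p = 0.0988). The third ligand, *Slit2*, averaged 350 ± 76.0 CPM in ctrl against 344 ± 72.4 in cKO-E (adjusted p = 0.975). The dKO-E level, 262 ± 40.4 CPM, was lower than ctrl (log2 fold change -0.43, SE 0.12, adjusted p = 0.0189). That call was lost with litter as a term (-0.12, adjusted p = 0.708), within batch 1 (-0.33, adjusted p = 0.0946) and within batch 2 (-0.54, adjusted p = 0.0603). *Slit2* was also lower in dKO-E than cKO-E (-0.41, SE 0.12, adjusted p = 0.0245), a call lost without cKO-E C or E (adjusted p up to 0.0995) and within either batch.

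None of the Robo receptors was called in either mutant against ctrl. *Robo1* averaged 382 ± 76.0 CPM in ctrl, 456 ± 53.3 in cKO-E and 331 ± 48.5 in dKO-E, and passed only between the mutants (log2 fold change -0.46, SE 0.10, adjusted p = 0.00316), by -0.60 within batch 1 and -0.16 within batch 2 (adjusted p = 0.687). *Robo2* averaged 1706 ± 290, 1627 ± 154 and 1456 ± 238 CPM in the same order, with adjusted p of 0.158 or more. *Robo3*, known for its role in midline crossing of commissural axons, was low throughout, at 14.8 ± 6.44, 12.9 ± 3.59 and 19.8 ± 4.17 CPM, from 9 to 139 counts in a library. It was called higher in dKO-E than cKO-E (0.59, SE 0.19, adjusted p = 0.0378), and that call was lost without any 1 of 7 libraries (cKO-E A, B, C, D and dKO-E B, E, F, adjusted p up to 0.134), and within batch 2 the difference was 0.21 (adjusted p = 0.868).

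*Ntn1*, the ligand netrin-1, was near the low end of the measured range, with 7 to 72 counts in a library. It averaged 7.15 ± 2.32 CPM in ctrl, 13.2 ± 1.81 in cKO-E and 7.90 ± 1.99 in dKO-E. It rose in cKO-E (log2 fold change 0.92, SE 0.19, adjusted p = 0.00322) although 1 ctrl library, at 11.8 CPM, reached into the cKO-E range, and it was lower in dKO-E than cKO-E (-0.74, SE 0.18, adjusted p = 0.00701). The difference between the mutants was not called within batch 1 (-0.70, adjusted p = 0.0698) or within batch 2 (-0.91, adjusted p = 0.281).

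Its receptors of the *Unc5* family, which mediate repulsion, parted ways. *Unc5c* was at 11.2 to 27.1 CPM in ctrl (median 15.1), at 31.9, 46.2, 48.4, 34.8 and 47.6 in cKO-E and at 11.9 to 32.0 in dKO-E (median 19.1). The 5 cKO-E libraries were above every ctrl library, and the highest dKO-E library just reached the lowest cKO-E library. *Unc5c* rose in cKO-E by 1.21 on the log2 scale (SE 0.20, adjusted p = 0.00056), and dKO-E was lower than cKO-E (-1.04, SE 0.20, adjusted p = 0.00166) but not called against ctrl (0.16, SE 0.24, adjusted p = 0.719).

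*Unc5d*, by far the most abundant of the 4, moved the other way. It averaged 967 ± 217 CPM in ctrl, 708 ± 86.6 in cKO-E and 766 ± 131 in dKO-E, and fell in cKO-E (log2 fold change -0.45, SE 0.14, adjusted p = 0.0293), a call lost when any 1 of 7 libraries was left out (adjusted p up to 0.0761). The size of the *Unc5d* difference was -0.64 within batch 1 (adjusted p = 0.000243), -0.17 within batch 2 (adjusted p = 0.518) and -0.34 with litter as a term (adjusted p = 0.0737). *Unc5a* (19.1 ± 6.80, 25.4 ± 7.91 and 16.7 ± 2.76 CPM in ctrl, cKO-E and dKO-E) and *Unc5b* (11.7 ± 2.74, 13.3 ± 3.25 and 8.67 ± 1.34) were called only between the mutants, lower in dKO-E (log2 fold change -0.52 with SE 0.17 and adjusted p = 0.0462, and -0.62 with SE 0.18 and adjusted p = 0.0234). The first call was lost without any 1 of 8 libraries and the second without cKO-E C or dKO-E D (adjusted p up to 0.155 and 0.132).

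**Figure D3:**
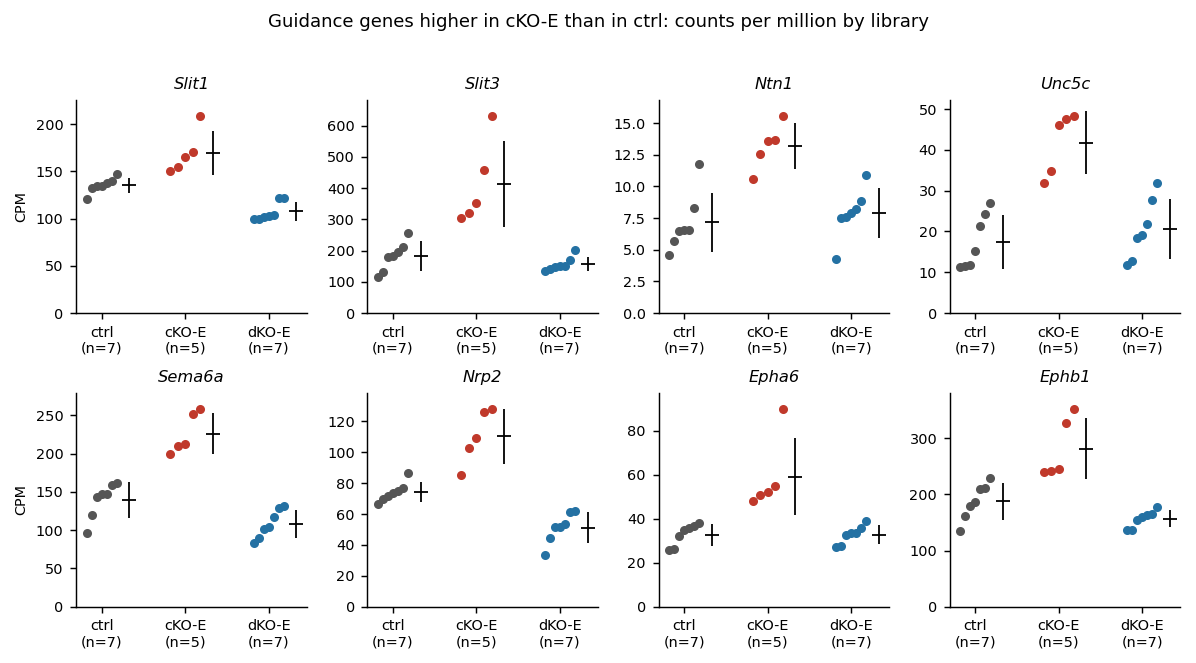
CPM by library of 8 guidance genes that rose in cKO-E, 1 panel each on a linear axis from 0. Points are libraries, sorted by value within a group, and the bar beside them is mean ± SD. For *Slit3* the 5 cKO-E libraries sit between 303 and 632 CPM, above the 7 ctrl libraries, and the 7 dKO-E libraries do not rise above ctrl.

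Of the 8 semaphorins, 3 rose and 2 fell in cKO-E. *Sema6a*, a membrane-bound ligand that acts through class A plexins, was at 95.7 to 162 CPM in ctrl (median 147), at 212, 199, 258, 210 and 251 in cKO-E and at 83.5 to 131 in dKO-E (median 104). No cKO-E library overlapped either other group. It rose in cKO-E (log2 fold change 0.70, SE 0.11, adjusted p = 0.000278) and was lower in dKO-E than cKO-E (-1.05, SE 0.10, adjusted p = 1.21e-06). The fall of dKO-E against ctrl was smaller (-0.36, SE 0.11, adjusted p = 0.0339) and was lost in 9 of 14 fits that left out 1 library.

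Its relative *Sema6d* averaged 530 ± 109 CPM in ctrl, 765 ± 79.7 in cKO-E and 526 ± 93.3 in dKO-E. All 5 cKO-E libraries were above all 14 others (log2 fold change 0.52, SE 0.12, adjusted p = 0.00643 against ctrl, and -0.54, SE 0.11, adjusted p = 0.00216 between the mutants). *Sema3c*, a secreted ligand, averaged 69.9 ± 20, 112 ± 21.8 and 64.3 ± 16.2 CPM in the same order and rose in cKO-E (0.65, SE 0.17, adjusted p = 0.0156), a call lost without cKO-E C (adjusted p = 0.0665), and was lower in dKO-E than cKO-E (-0.75, SE 0.15, adjusted p = 0.00191).

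The semaphorins that fell were lower in both mutants. *Sema5a* averaged 1222 ± 94.9 CPM in ctrl, 973 ± 135 in cKO-E and 1064 ± 116 in dKO-E (log2 fold change -0.33, SE 0.08, adjusted p = 0.0112 for cKO-E, then -0.21, SE 0.07, adjusted p = 0.047 for dKO-E). *Sema3a*, a secreted repellent that binds neuropilin-1, averaged 203 ± 17.3, 167 ± 20.2 and 158 ± 34.7 CPM (-0.29, SE 0.08, adjusted p = 0.0205 for cKO-E, then -0.34, SE 0.10, adjusted p = 0.0308 for dKO-E). With litter as a term neither gene was called in either mutant (*Sema5a* -0.30 and -0.16, *Sema3a* -0.16 and -0.20). The fall of *Sema5a* in cKO-E was -0.44 within batch 1 and -0.18 within batch 2 (adjusted p = 0.300), and that of *Sema3a* in dKO-E was -0.25 (adjusted p = 0.155) and -0.56. The groups overlapped for both genes, and the dKO-E library C, at 1290 and 223 CPM, was inside or above the ctrl range. In dKO-E the call of *Sema5a* was lost in 11 and that of *Sema3a* in 8 of 14 fits without 1 library, and in cKO-E that of *Sema3a* was lost without cKO-E A (adjusted p = 0.0607). *Sema3d*, *Sema3e* and *Sema5b* passed no test.

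The neuropilins, coreceptors that bind secreted semaphorins, took opposite directions in cKO-E and the same one in dKO-E. *Nrp1* was at 234 to 301 CPM in ctrl (median 275), at 128, 184, 197, 190 and 152 in cKO-E and at 151 to 219 in dKO-E (median 182). Every mutant library lay below every ctrl library. Against ctrl the log2 fold change of cKO-E was -0.70 (SE 0.10, adjusted p = 8.15e-05), that of dKO-E was -0.61 (SE 0.08, adjusted p = 4.39e-05), and the mutants did not differ past the threshold (0.10, 95% interval -0.11 to 0.32, adjusted p = 0.603).

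*Nrp2* was at 66.2 to 86.8 CPM in ctrl (median 73.7), at 85.3, 103, 126, 128 and 109 in cKO-E and at 33.5 to 62.0 in dKO-E (median 51.7). Its lowest cKO-E library, A, was just within the ctrl range, and all dKO-E libraries were below ctrl. *Nrp2* rose in cKO-E (log2 fold change 0.55, SE 0.09, adjusted p = 0.00044), fell in dKO-E against ctrl (-0.55, SE 0.11, adjusted p = 0.00169) and was lower in dKO-E than cKO-E (-1.09, SE 0.13, adjusted p = 1.15e-05). The fall in dKO-E against ctrl was -0.53 within batch 1 (adjusted p = 0.0280), but was not called within batch 2 (-0.49, adjusted p = 0.0945) or with litter as a term (-0.39, adjusted p = 0.150). Of the promoters shown earlier, that of *Nrp2* held 37 CG pairs and that of *Nrp1* held 14. Any relation of these numbers to direction was not tested.

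None of the 8 plexins, the signalling receptors of semaphorins, was called in cKO-E against ctrl, with log2 fold changes from -0.17 to 0.35. In dKO-E, *Plxnc1* and *Plxna2* fell. *Plxnc1* was at 25.8 to 54.7 CPM in ctrl (median 38.8), at 40.5, 47.6, 73.8, 43.5 and 47.6 in cKO-E and at 21.8 to 30.8 in dKO-E (median 28.1). All dKO-E libraries were below all cKO-E libraries and at the low end of ctrl (-0.55, SE 0.14, adjusted p = 0.0127 against ctrl, and -0.89, SE 0.14, adjusted p = 0.000163 against cKO-E). Against ctrl the fall of *Plxnc1* was -0.69 within batch 1 (adjusted p = 0.00725), -0.22 within batch 2 (adjusted p = 0.677) and -0.67 with litter as a term (adjusted p = 0.0391).

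*Plxna2* averaged 1363 ± 201 CPM in ctrl, 1286 ± 133 in cKO-E and 1101 ± 122 in dKO-E, and was called lower in dKO-E against ctrl (log2 fold change -0.32, SE 0.09, adjusted p = 0.0206). That call was lost with litter as a term (-0.41, adjusted p = 0.0709) and within batch 2 (-0.26, adjusted p = 0.144). *Plxnd1* (57.6 ± 18.6, 70.9 ± 12.2 and 48.7 ± 8.0 CPM) and *Plxna4* (2019 ± 502, 2553 ± 283 and 1974 ± 353 CPM) were called lower in dKO-E than cKO-E only, by -0.52 (SE 0.12, adjusted p = 0.00561) and -0.37 (SE 0.11, adjusted p = 0.0255). The call of *Plxna4* was lost without cKO-E B or C (adjusted p up to 0.0807) and within batch 1 (-0.42, adjusted p = 0.0899). That of *Plxnd1* was lost within batch 2 (-0.42, adjusted p = 0.439). *Plxna1*, *Plxna3*, *Plxnb1* and *Plxnb2* passed no test, and 10.7% of the exon length of *Plxna1* overlaps a gene on the other strand, whose reads may not be separable since the strand setting of the counting is not stated.

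**Figure D4:**
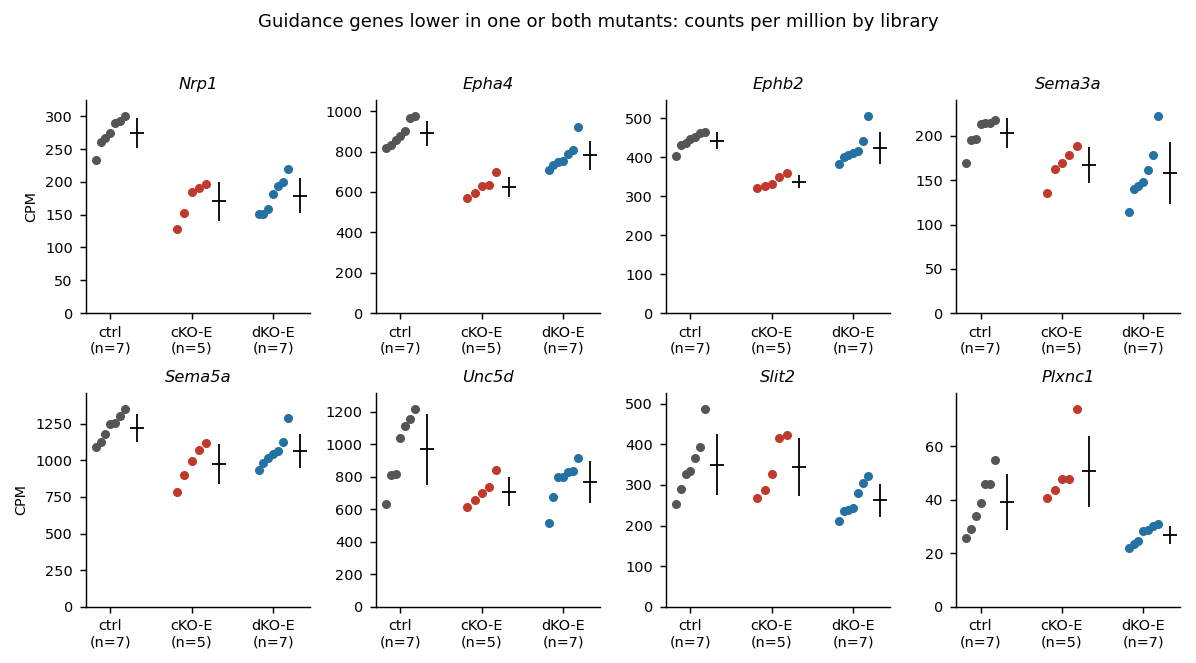
CPM by library of 8 guidance genes that fell in at least 1 mutant, 1 panel each on a linear axis from 0. Points are libraries, sorted by value within a group, and the bar beside them is mean ± SD. For *Nrp1* all 12 mutant libraries are at or below 219 CPM and all ctrl libraries at or above 234.

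Among the ephrins, ligands held at the cell surface, *Efna5* rose in cKO-E. It was at 99.7 to 292 CPM in ctrl (median 185), at 225, 297, 222, 338 and 325 in cKO-E and at 119 to 201 in dKO-E (median 166). The wide ctrl range overlapped cKO-E, while dKO-E lay below all cKO-E libraries. The rise was 0.64 on the log2 scale (SE 0.19, adjusted p = 0.0251) and was lost without cKO-E B, D or E (adjusted p up to 0.067). The difference between the mutants was -0.78 (SE 0.13, adjusted p = 0.000383).

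Among class B ephrins, *Efnb1* fell in cKO-E and *Efnb2* in dKO-E. *Efnb1*, on the X chromosome, averaged 135 ± 14.2 CPM in ctrl, 109 ± 17.4 in cKO-E and 121 ± 14.8 in dKO-E (log2 fold change -0.31, SE 0.10, adjusted p = 0.035 in cKO-E, lost without any 1 of 6 libraries). *Efnb2* averaged 558 ± 46.4, 533 ± 36.8 and 493 ± 35.2 CPM (-0.19, SE 0.06, adjusted p = 0.0479 in dKO-E, lost without any 1 of 10 libraries). *Efna2*, *Efna3* and *Efnb3*, at 4.84 to 18.1 CPM on average in ctrl, passed no test, and 14.1% of the exon length of *Efna3* overlaps a gene on the other strand.

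Of the 8 Eph receptors, 2 rose and 2 fell in cKO-E. *Epha4*, which binds both ephrin classes, was at 815 to 978 CPM in ctrl (median 878), at 571, 634, 596, 630 and 701 in cKO-E and at 710 to 923 in dKO-E (median 754). The cKO-E libraries were below all others. *Epha4* fell in cKO-E (log2 fold change -0.50, SE 0.07, adjusted p = 5.12e-05), and dKO-E was higher than cKO-E (0.32, SE 0.07, adjusted p = 0.00514) and lower than ctrl (-0.20, SE 0.06, adjusted p = 0.0374). The last call was lost in 11 of 14 fits without 1 library, and its size was -0.07 within batch 1, -0.36 within batch 2 and -0.05 with litter as a term. Between the mutants *Epha4* differed by 0.45 within batch 1 and by 0.13 within batch 2 (adjusted p = 0.716).

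*Ephb2* showed the same order of groups. It was at 402 to 464 CPM in ctrl (median 448), at 322, 331, 349, 360 and 326 in cKO-E and at 383 to 507 in dKO-E (median 410). Again all cKO-E libraries were below all others (-0.39, SE 0.05, adjusted p = 9.97e-05 against ctrl). It was higher in dKO-E than cKO-E (0.33, SE 0.07, adjusted p = 0.00288) and not called in dKO-E against ctrl (-0.07, 95% interval -0.19 to 0.05). Between the mutants *Ephb2* differed by 0.40 within batch 1 (adjusted p = 0.0213) and by 0.23 within batch 2 (adjusted p = 0.410).

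*Ephb1* and *Epha6* were instead highest in cKO-E. *Ephb1* was at 135 to 229 CPM in ctrl (median 187), at 245, 240, 352, 241 and 328 in cKO-E and at 136 to 178 in dKO-E (median 160). *Epha6* was at 25.6 to 38.0 CPM in ctrl (median 35.0), at 52.1, 55.0, 89.9, 50.9 and 48.2 in cKO-E and at 27.0 to 39.2 in dKO-E (median 33.3). For both genes the cKO-E libraries were above all others, with C the highest.

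The rise in cKO-E was 0.59 for *Ephb1* (SE 0.12, adjusted p = 0.00313) and 0.86 for *Epha6* (SE 0.15, adjusted p = 0.000737) on the log2 scale, and between the mutants the differences were -0.87 (SE 0.10, adjusted p = 7.16e-06) and -0.89 (SE 0.14, adjusted p = 0.000257). Without cKO-E C the rise of *Epha6* was 0.65. Within batch 2 neither its rise (0.63, adjusted p = 0.0644) nor its difference between the mutants (-0.51, adjusted p = 0.273, against -1.05 within batch 1) was called. *Ephb1* also fell in dKO-E against ctrl (-0.29, SE 0.10, adjusted p = 0.0465), a call lost in 11 of 14 fits without 1 library, at -0.40 within batch 1 and -0.15 within batch 2 (adjusted p = 0.691).

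*Epha5* averaged 2364 ± 305 CPM in ctrl, 2099 ± 178 in cKO-E and 1946 ± 178 in dKO-E, and *Epha7* averaged 217 ± 34.8, 201 ± 27.2 and 171 ± 17.2 CPM. Both were called lower in dKO-E against ctrl only (log2 fold change -0.29, SE 0.08, adjusted p = 0.0169, and -0.35, SE 0.09, adjusted p = 0.0145). For *Epha5* the fall was -0.44 within batch 1 and -0.12 within batch 2 (adjusted p = 0.394), and that of *Epha7* was not called with litter as a term (-0.30, adjusted p = 0.141). *Epha3*, the best expressed of the family per kilobase, averaged 1339 ± 283, 1326 ± 188 and 1085 ± 154 CPM and was just short of the threshold between the mutants (adjusted p = 0.0547). *Ephb3*, with 4 to 39 counts in a library, passed no test.

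Counts of called genes differed between batches and with litter as a term. Within batch 1 alone, 11 genes rose and 8 fell in cKO-E, beside 5.29% and 8.67% of all genes tested there, and within batch 2 alone 8 rose and 3 fell, beside 2.81% and 2.70%. With litter as a term, 12 rose and 3 fell (*Nrp1*, *Epha4*, *Ephb2*), beside 5.51% and 7.14% of all genes. The calls of *Sema3a*, *Sema5a*, *Efnb1*, *Efna5* and *Unc5d* in cKO-E were lost both with litter as a term and within batch 2, and those of *Ntn1*, *Slit1* and *Epha6* within batch 2 only.

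In dKO-E against ctrl, 14 fell within batch 1 (4 libraries against 4), where 8.19% of all genes did, and 3 of 42 tested within batch 2 (2 against 3), where 2.53% did. Of the 14 within batch 1, only 10 were among the 14 called with all libraries. With litter as a term 4 fell, namely *Nrp1*, *Epha5*, *Plxnc1* and *Unc5d*, beside 4.05% of all genes. Of the 14 calls made with all libraries and no litter term, 11 were lost in that fit. Between the mutants, 13 were lower in dKO-E within batch 1, beside 6.62% of all genes, and 12 within batch 2, beside 2.59%, of which 11 were among the 18. Within batch 1, 2 were higher in dKO-E (3.66% of all genes). The 1 dKO-E library of batch 3 entered neither within-batch fit, and what the label batch refers to is not stated.

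Markers of some other cell types moved with the groups, and their part in these differences was not tested. Cajal-Retzius neurons are cells at the cortical surface that secrete reelin. The sum of 7 of their markers was 523 to 688 CPM in ctrl, 842 to 982 in cKO-E and 457 to 648 in dKO-E. For this sum cKO-E stood above both, as it did for *Slit1*, *Slit3*, *Sema6a*, *Sema6d*, *Epha6* and *Ephb1*. The sum of 10 microglia markers was 4.93 to 13.3, 28.0 to 39.8 and 5.89 to 10.1 CPM, with *Trem2* at 0 in ctrl. Here too cKO-E stood above both. The 10 markers of interneurons and ganglionic eminence summed to 75.9 to 154, 128 to 174 and 100 to 131 CPM, with *Gsx2* at 0 in ctrl and cKO-E. In cKO-E against ctrl, 4 of 5 Cajal-Retzius markers tested rose, 3 of 3 for microglia and 1 of 6 for interneurons, where 1 fell. Of 2 cortical hem and choroid plexus markers tested there, 1 rose. None of the 6 endothelial, 2 pericyte and meninges and 2 red blood cell markers tested was called.

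The tissue's own markers had counts, apart from *Sox2* and *Tubb3*. Intermediate progenitor markers (8) summed to 846 to 957 CPM in ctrl, 681 to 823 in cKO-E and 634 to 926 in dKO-E, and 4 of 8 fell in cKO-E. Apical progenitor markers (10) summed to 1426 to 1639, 1169 to 1517 and 1307 to 1524 CPM, and of the 9 tested 5 fell and 1 rose in cKO-E against ctrl. In dKO-E against ctrl 2 of the 9 fell. The part of progenitor markers in the guidance gene differences was not tested. Excitatory neuron markers (10) summed to 1752 to 3096, 2140 to 2883 and 1536 to 2366 CPM, with all 9 tested below ctrl in dKO-E, of which 1 passed the test. *Sox2* and *Tubb3*, 2 defining markers, are listed at 0 in every library. The ctrl library H had the lowest neuronal sum of its group and also the lowest ctrl value for 20 of the 43 guidance genes. Without ctrl H and I, the other ctrl embryo of that litter, 11 genes rose and 7 fell in cKO-E, and 1 rose (*Robo3*) and 16 fell in dKO-E. Of those 7 and 16 that fell, 6 and 11 were among the genes called with all libraries.

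**Figure D5:**
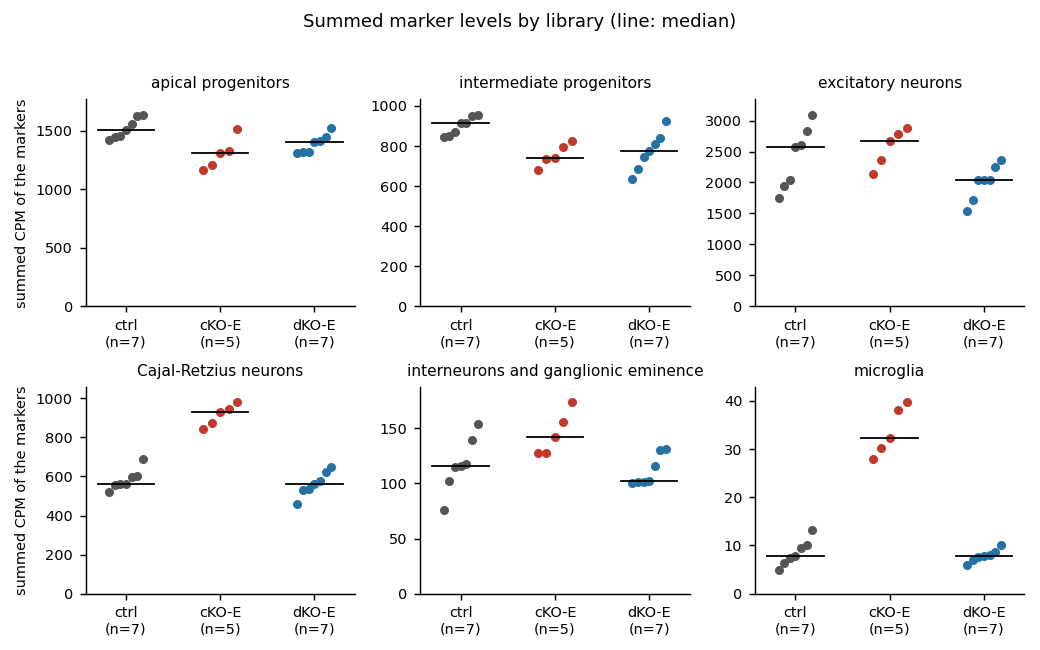
Summed CPM of marker genes of 6 cell types by library, on linear axes from 0. Points are libraries sorted by value within a group and lines are medians. The 5 cKO-E libraries stand above the other groups for Cajal-Retzius markers (842 to 982 CPM) and microglia markers (28.0 to 39.8 CPM).

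Other genes of the pathway were measured alongside. Of 84 further guidance genes (42 ligands, receptors and adhesion molecules, and 42 intracellular signalling genes), 70 were tested in cKO-E against ctrl, where 7 rose and 9 fell. In dKO-E against ctrl 1 rose and 14 fell of 71, and of 71 compared between the mutants, dKO-E had 4 at a higher and 21 at a lower level. Their median log2 fold changes were 0.09, -0.12 and -0.12, beside 0.02, 0.01 and 0.02 over all genes tested. Of all genes tested, 7.31% rose and 9.88% fell in cKO-E against ctrl, and 5.45% rose and 10% fell in dKO-E against ctrl. Between the mutants, 5.59% of all genes were higher in dKO-E and 9.42% lower. Whether the further guidance genes were called more often than all genes was not tested.

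*Ntng1*, which encodes the axonal surface protein netrin-G1, rose in cKO-E (log2 fold change 1.17, SE 0.12, adjusted p = 5.44e-06) and was lower in dKO-E than cKO-E (-1.49, SE 0.14, adjusted p = 7.04e-07). *Mical2*, of the MICAL family of actin-oxidising enzymes, and *Nell2*, a ligand of *Robo3*, also rose in cKO-E (1.10, SE 0.25, adjusted p = 0.00512, and 0.37, SE 0.09, adjusted p = 0.0105). The kinase gene *Pak3*, the repulsive guidance molecule gene *Rgma* and *Dock1*, which activates Rac, fell in cKO-E (-0.65, SE 0.06, adjusted p = 3.82e-06, then -0.68, SE 0.11, adjusted p = 0.000352, and -0.59, SE 0.10, adjusted p = 0.000439).

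In dKO-E against ctrl the lowest p-values belonged to *Dock1* (log2 fold change -0.49, SE 0.07, adjusted p = 0.000171), *Srgap3*, a GTPase-activating partner of Robo (-0.36, SE 0.06, adjusted p = 0.000251), and *Pak3* (-0.38, SE 0.06, adjusted p = 0.000427), all lower. The only gene that rose was *Rnd1*, a GTPase that binds plexins (0.84, SE 0.19, adjusted p = 0.00553), which did not pass the filter on low counts in cKO-E against ctrl. The netrin receptor gene *Dcc* fell in dKO-E (-0.27, SE 0.09, adjusted p = 0.0456).

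Between the mutants, *Nell2* (-0.63, SE 0.08, adjusted p = 2.07e-05) and *Flrt2*, an adhesion molecule that binds UNC5D (-0.57, SE 0.08, adjusted p = 0.000116), followed *Ntng1* among those lower in dKO-E. *Rnd1* (1.19, SE 0.23, adjusted p = 0.00133), the adaptor gene *Nck1* (0.31, SE 0.08, adjusted p = 0.0149) and *Rgma* (0.45, SE 0.12, adjusted p = 0.0153) were higher.

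The guidance genes were long. The 43 had a median genomic span of 154.4 kb, from 6.1 to 952.0 kb, against 29.3 kb over the 11642 genes tested in cKO-E that had a position. Those that rose in cKO-E had a median span of 277.1 kb, those that fell 188.4 kb and those not called 69.0 kb. In dKO-E against ctrl the genes that fell had a median of 154.2 kb and those not called 156.0 kb. These spans are a description and were not tested.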

How the data were processed

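Total RNA of E13.5 cortex from 19 embryos was depleted of ribosomal RNA and sequenced by Click-seq. The counts per gene were deposited by the authors, 1 table per library, not normalized. Per the labels and the study's methods, adapters were removed with cutadapt 1.13, reads were aligned to mm10 with STAR 2.5.2a and deduplicated by molecular identifier with UMI-tools 0.5.3, and htseq-count 0.6.1p1 counted reads in intersection-nonempty mode. The strand setting and annotation release are not given in the sources used here. Summary entries that name no gene, 23.3% to 31.8% of each library, were left out.

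Groups were taken from the sample labels. In R 4.3.3, each comparison was fitted with only its own libraries in edgeR 4.0.16 (filterByExpr with a minimum count of 10, TMM factors, quasi-likelihood test, Benjamini-Hochberg adjustment over all genes tested, no covariates), which was tested on simulated data. DESeq2 1.42.0 served as an alternative, beside other scalings, filters, thresholds, batch, sex and litter terms, single batches, a replicate block and leaving out each library. Levels are CPM of the filtered library size times the TMM factor, and intervals are 95% from the SE. Depth sets the precision of low genes. Exon lengths, positions and overlaps came from GENCODE M21, in which 51719 of 51912 gene identifiers were found, and promoters from RefSeq (GRCm38.p6).

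The guidance genes and all lists were chosen with earlier results of these data known. Genes called in any comparison are described, the 12 with the smallest p by library, and of other guidance genes the 3 with the smallest p per comparison and direction. Replicate letters did not pair the samples, since the correlations of same-letter deviations from the group means were between -0.37 and 0.14. No 2 libraries of a group agreed within sampling noise (lowest chi-square per degree of freedom 1.42). Figures were drawn with matplotlib 3.10.9.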

Additional observations from a re-analysis of the deposited data

Results flagged for a closer look

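Of 165 groups of values examined, 8 held a library that stood apart from the others of its group, where chance gives about 1 in 20. *Epha6* was at 89.9 CPM in cKO-E C, against 55 in the next library, and its rise in cKO-E still passed the test without that library (log2 fold change 0.65). *Plxnc1* was also highest in cKO-E C, at 73.8 CPM against 47.6. *Efna2* was at 26.1 CPM in cKO-E D against 17.3, and *Epha7* at 205 CPM in dKO-E C against 176. Summed cortical hem and choroid plexus markers were at 132 CPM in cKO-E E against 34.1, and at 46.8 in dKO-E G against 18.7. In ctrl F, pericyte and meninges markers summed to 84.2 CPM against 25.7, and red blood cell markers to 117 against 54.8. The part of these libraries' marker levels in the guidance gene differences was not tested.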

How the results depend on the processing

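No called guidance gene changed direction under any alternative run, and of 1573 alternative values of called genes 1302 kept their side of the threshold and 271 did not pass it. In cKO-E against ctrl, 11 rose and 7 fell. At an FDR of 0.001, 5 rose and 3 fell, and 3 fell at 0.01, with litter as a term and in batch 2 alone. Leaving out 1 library gave 10 to 12 that rose and 4 to 7 that fell, the 4 without cKO-E A. In dKO-E against ctrl, 0 rose and 14 fell. One gene, *Robo3*, rose (1) with litter as a term, with the replicate block, in batch 1 alone and without ctrl H and I. The number that fell was 7 with total counts, 4 with litter as a term, 3 in batch 2 alone, 1 at an FDR of 0.001, 3 at 0.01 and 7 without the 3 libraries of lowest depth. Leaving out 1 library gave 0 to 1 that rose (1 without ctrl H) and 8 to 14 that fell, with 9 without ctrl B and 8 without ctrl D or dKO-E D, F or G. Between the mutants, 3 rose and 18 fell. None (0) rose in batch 2 alone or at an FDR of 0.001, where 8 fell, and leaving out 1 library gave 2 to 3 and 14 to 20. The cause of these differences was not tested. With the replicate block, 12 rose and 10 fell in cKO-E, 1 and 11 in dKO-E, and 3 and 17 between the mutants. The letters are shared numbers only. Litter could not be fitted between the mutants, which share none. Scaling by total counts moved the median log2 fold change of all genes in dKO-E against ctrl to 0.10, and that of the guidance genes to -0.09, with 18 above and 25 below 0. The sets without ctrl H and I and without the 3 libraries of lowest depth (cKO-E D, dKO-E E and dKO-E G) were chosen after seeing the data. Low counts limit *Sema3d*, *Ephb3*, *Efna3*, *Ntn1* and *Robo3*.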
